A study of Arabidopsis thaliana with 8 samples.

Results

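The low tiles of the TB plates are 517 probes of an Arabidopsis thaliana chromosome 4 tiling array that lay well below the middle of the array in H3K4me2 chromatin immunoprecipitation (ChIP) of Col-0 seedlings. Each tile is named after its well in a numbered 96-well plate, and the set with the prefix TB has 100 plates, TB00 to TB99. A tile was counted as low when its log2 ratio was below -1, which is 2-fold below the median tile, in all 4 replicates after each replicate was centred on the median of all tiles named by plate and well. Of the 9456 TB tiles with values, 517 met this rule, or 5.47%. The whole array had 21285 such tiles, of which 4486 were below -1 in all 4 replicates, so that TB held 44.4% of the tiles and 11.5% of the low ones. Because the ratios themselves chose the tiles, their level is described here and not tested.

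H3K4me2 is dimethylation of histone H3 at lysine 4. In plants it marks mostly genes in open chromatin, and it is scarce over silent transposons and other repeats, which instead carry DNA methylation and H3K9 methylation. On an array that tiles a chromosome, each ratio compares immunoprecipitated with input DNA over a single fragment. Tile names cannot be joined to the gene table used here, so the low tiles are given by plate and well, without genes, coordinates or sequences. Whether the order of the wells follows the chromosome is not given in the sources used here.

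All samples were whole Col-0 seedlings 10 days old, grown in liquid medium under long days with no treatment, in 1 group of 4 replicates. For each replicate, IP DNA made with an H3K4me2 antibody was compared with input DNA on 2 arrays of opposite dye orientation. The 2 arrays of a swap carry identical deposited values, so n = 4. The labels ascribe the IP chromatin of replicates 2, 3 and 4 to 1 seedling batch and that of replicate 1 to another, while the input DNA of each replicate carries a seedling batch of its own. The IP chromatin of 3 replicates is thus not labelled as coming from separate seedling batches, so p-values cover only how far these samples differ, and that spread may be technical. The replicate medians before centring were -0.96, -0.33, -0.71 and -0.38. The direction of the ratio, IP over input or its inverse, is not given in the sources used here, so "low" refers to the sign as deposited. In whole seedlings a low ratio in every cell and a mixture of cells with unlike ratios cannot be told apart. The number of arrays limits the precision.

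The low tiles were moderately low, with a tail of deep ones. Their median log2 ratio was -1.47, -1.56, -1.62 and -1.55 in replicates 1 to 4, or -1.55 ± 0.06 (SD, n = 4). The 8939 TB tiles that were not low had 0.56 ± 0.03. Of the 517, 286 had a mean below -1.5, 129 below -2, 59 below -2.5 and 13 below -3. The means ran from -3.74 to -1.05. Tile TB23B01 was the lowest, at -4.00, -3.47, -4.11 and -3.38 in replicates 1 to 4. Tile TB11D05 followed at -3.99, -2.86, -3.80 and -3.07. In both, replicates 1 and 3 were lower than 2 and 4. Tile TB56E09 had -3.03, -3.45, -3.48 and -3.55. Tile TB93E05 had -3.13, -3.61, -3.18 and -3.42. Tile TB17A12 had -3.14, -3.42, -3.22 and -3.52. These 3 tiles went the other way on the whole, with replicate 1 the highest of the 4. The sixth lowest, TB11D04, lay directly beside TB11D05 and had a mean of -3.27 ± 0.28.

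The limit of -1 cut through a continuous range of values. Just inside it, TB30G07, TB01H05 and TB94E11 had a highest replicate of -1.00001, -1.0004 and -1.0005. Just outside it, TB86G09, TB92C12 and TB15H03 had a highest replicate of -0.9995, -0.9979 and -0.9975. The mean of TB15H03 was -1.22, lower than that of TB94E11, at -1.05, so a tile outside the rule can be lower on average than one inside it. In single replicates, 771, 968, 1005 and 901 TB tiles were below -1. A further 199 tiles were below -1 in 3 replicates, 351 in 2 and 278 in 1. The tiles below in 2 replicates fell mostly into 2 combinations, with 148 in replicates 2 and 4 and 128 in replicates 1 and 3, against 50, 20, 3 and 2 in the other 4.

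All 517 low tiles were below the median tile at an adjusted p under 0.05 in limma (two-sided, Benjamini-Hochberg over all 21285 tiles, n = 4), where 41.9% of all tiles on the array and 25.6% of the TB tiles were called below. The rule used these same values, so nothing is read from that count. The rule used all 4 replicates, so no replicate lies outside the choice of the 517. As a description, tiles were also chosen in 2 replicates and read in the other 2. In each split below, 517 of the chosen tiles are the low tiles themselves. The rule had already required these to be below -1 in the tested replicates. The high shares called are thus largely built in, and nothing is read from them either. Tiles below -1 in replicates 1 and 2, which share a number in their titles that was taken as that of a slide, were tested in replicates 3 and 4 alone. All 580 of them were called below in limma (adjusted p under 0.05, n = 2), with a median of -1.53, against 36.1% of all tiles and 19.6% of the TB tiles. With the pairs exchanged, all 675 tiles chosen in replicates 3 and 4 were called below in replicates 1 and 2, with a median of -1.39, against 35.1% of all tiles and 18.2% of the TB tiles. The IP chromatin of replicates 2, 3 and 4 carries 1 batch label, so these pairs are not fully separate. Choosing and testing in other pairs of replicates gave the following shares. Of 722 tiles chosen in replicates 1 and 3, 98.9% were called in 2 and 4, against 44.8% of all tiles, and of 787 chosen in 2 and 4, 99.2% were called in 1 and 3, against 43.0%. All 566 tiles chosen in replicates 1 and 4 were called in 2 and 3, against 35.9% of all tiles. All 720 chosen in 2 and 3 were called in 1 and 4, against 35.4%. Among the TB tiles, 29.1% were called in 2 and 4, 26.7% in 1 and 3, 19.3% in 2 and 3 and 18.7% in 1 and 4. Replicates 1 and 3 were alike across the low tiles, as were 2 and 4 (given below). A spread taken within such a pair may therefore be too small.

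A tile chosen in 3 replicates was usually below -1 in the remaining one as well. Of 624 TB tiles below -1 in replicates 2, 3 and 4, 82.9% were below -1 in replicate 1 (exact 95% interval 79.7 to 85.7%), with a median there of -1.36. The share was 94.3% of 548 tiles for replicate 2, 97.2% of 532 for replicate 3 and 91.8% of 563 for replicate 4. In each case, the tiles that stayed below -1 were the 517 low tiles, so each share is 517 over the number chosen. For scale, 771, 968, 1005 and 901 of all 9456 TB tiles were below -1 in replicates 1 to 4. Every chosen tile was below 0 in the replicate left out, and the highest single value was -0.49. The interval covers counting error only, and adjacent tiles are not independent.

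Low tiles occurred on 94 of the 100 TB plates, but unevenly. A plate held 4 low tiles at the median and up to 25, and 6 plates held none. The 5 plates with most were TB18 with 25, TB01 with 23, TB11 with 19, TB34 with 16 and TB23 with 15, together 19.0% of all low tiles. The 12 plates with 10 or more held 35.4% of them. The 5 plates with most low tiles had medians of -0.48, -0.38, -0.31, -0.15 and -0.44 in the order above, against 0.48 ± 0.02 for all TB tiles. That of TB18 was the lowest of all TB plates. The low tiles were thus spread over most plates, with more of them on a few. The name "scattered" is used for that spread over plates. Within plates many low tiles lay in runs, as given below. The share of low tiles was 7.88% on TB00 to TB39 and 3.86% on TB40 to TB99, a boundary chosen after the values were seen. In steps of 10 plates it was highest on TB10 to TB19, at 10.3%, and lowest on TB80 to TB89, at 1.26%.

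**Figure D1:**
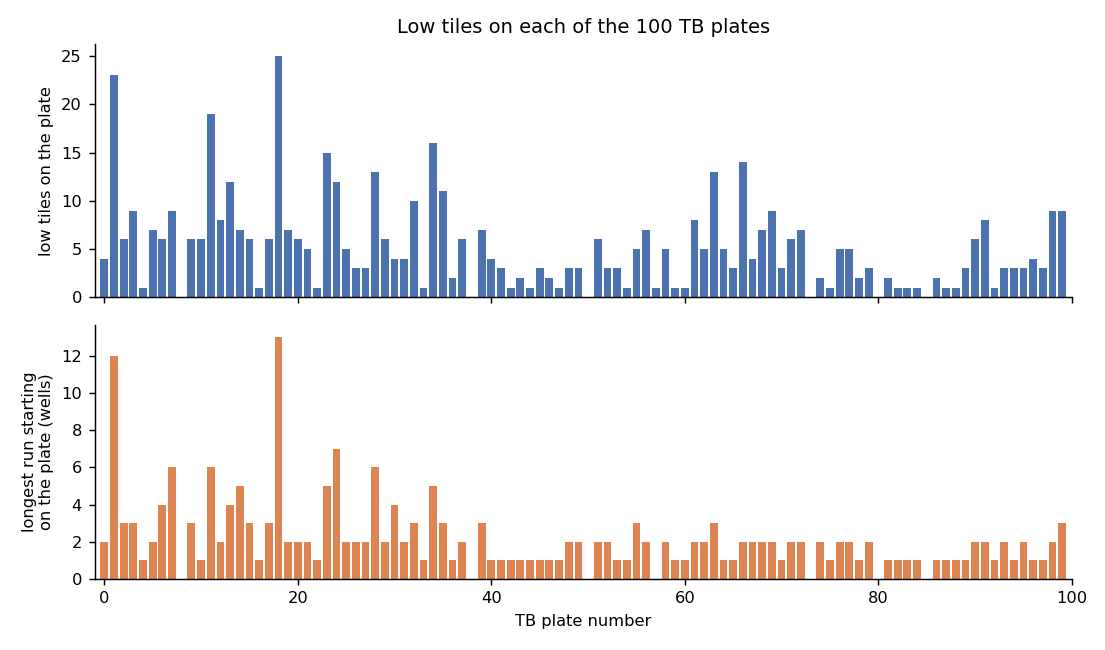
Bars give, for each TB plate in number order, the number of low tiles (top) and the length in wells of the longest run that starts on the plate (bottom). TB18 and TB01 hold the most low tiles, 25 and 23, and also the longest runs, 13 and 12 wells.

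Counted along the plate rows and across row and plate ends, the 517 low tiles formed 342 runs of consecutive wells. Most runs were short: 242 were 1 well long, 69 were 2, 17 were 3, and 14 were longer, namely 4 of 4 wells, 4 of 5, 3 of 6 and 1 each of 7, 12 and 13. The mean was 1.51 wells. Tiles standing alone made up 46.8% of all low tiles, and runs of 3 or more wells held 26.5%. Of the 31 runs of 3 or more wells, 27 started on TB00 to TB39 and 4 on TB40 to TB99. All 10 runs of 5 or more wells started on the first of these stretches. The share of low tiles that stood alone was 35.9% on TB00 to TB39 and 61.6% on TB40 to TB99, and on TB80 to TB89 all 12 low tiles stood alone.

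Runs lay close together or far apart. The gap between the end of one run and the start of the next was 14 wells at the median, with quartiles of 4 and 37 and a mean of 26.5. Of 341 gaps, 44 were a single well and 73 were 3 wells or fewer, while 17 were at least a whole plate of 96 wells. The 44 wells in the single-well gaps all had values, with a median of -0.76; 37 were below 0 and 19 had a mean below -1 but at least 1 replicate above it. The longest gap was 203 wells, between TB84B01 and TB86C01, where 201 tiles with values had a median of 0.68 and the lowest mean was -1.09. The next were 162 wells between TB59B06 and TB60H01 and 156 wells between TB79G09 and TB81D10, with medians of 0.56 and 0.97.

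The closeness of low tiles can be followed well by well. Of the wells with values that came 1 well after a low tile, 34.4% were low too. The share was 23.4% at 2 wells, 17.9% at 3, 10.9% at 6 and 8.95% at 12. At 96 wells it was 6.16%, near the 5.47% of the TB set. Runs also passed over row ends. After a low tile in column 12 the first well of the next row was low in 13 of 45 cases, or 28.9% (exact 95% interval 16.4 to 44.3%), against 162 of 472, or 34.3% (30.0 to 38.8%), within rows. At a plate end it was 1 of 5, the run from TB56H12 to TB57A01. The well directly underneath in the same column was low in 41 of 455 cases, or 9.01%, which is the share at 12 wells taken within plates, since a row has 12 wells. The intervals cover counting error only, and adjacent tiles are not independent, so the intervals may be too narrow.

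Longer runs were also lower. Low tiles that stood alone had a median of -1.47 ± 0.07, those in runs of 2 wells -1.49 ± 0.07, those in runs of 3 or 4 wells -1.83 ± 0.11, and those in runs of 5 or more -2.24 ± 0.19 (n = 4 replicates). The last 2 classes were below the first 2 in every replicate. Within runs of 3 or more wells, the 75 inner tiles had a median of -2.33 ± 0.27 and the 62 end tiles -1.70 ± 0.07. In replicates 1 to 4 the inner tiles had -2.55, -2.15, -2.57 and -2.05 and the end tiles -1.72, -1.62, -1.79 and -1.67, without overlap. These are descriptions of the values that chose the tiles. An end tile lies by definition beside a well that was not low or had no value. Where neighbouring wells have similar levels, lower inner tiles and lower long runs are thus partly built in.

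The wells around a run were lower than the rest of TB. The well directly beside a run had a median of -0.55 ± 0.06, with -0.60 ± 0.08 before runs and -0.52 ± 0.05 after them. These wells are by construction not low. At 2 wells from a run the median was -0.32 ± 0.08, at 3 wells 0.05 ± 0.07, at 5 wells 0.21 ± 0.03 and at 12 wells 0.31 ± 0.03, the last 4 with tiles of neighbouring runs included. TB wells at least 6 wells from any low tile had 0.71 ± 0.04. The level thus rose most over the first 3 wells. At 12 wells it was still below the 0.48 ± 0.02 of all TB tiles. The distant wells leave out low tiles and the wells near them by definition, so the gap to their 0.71 is partly built in. Beside a run 76.0% of the wells were below 0, and at 12 wells 39.2%. Runs of 5 or more wells had lower surroundings further out, with a median of -0.37 ± 0.08 at 12 wells, from 10 runs only, against 0.36 ± 0.02 for tiles that stood alone.

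**Figure D2:**
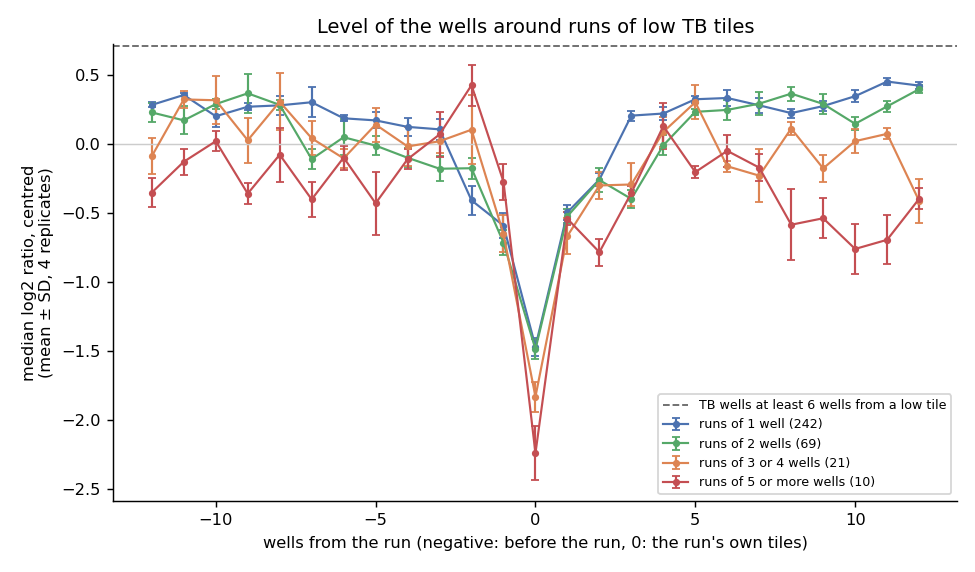
The horizontal axis gives wells before (negative) and after a run, with the run's own low tiles at 0, and the vertical axis the median centred log2 ratio (points, mean of the 4 replicate medians; bars, SD) for runs of 1, 2, 3 or 4, and 5 or more wells. All 4 classes rise towards 0 within 3 to 4 wells of the run. All stay below the dashed line, the 0.71 of wells at least 6 wells from a low tile, which by definition hold no low tiles.

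Tiles that stood alone were seldom isolated dips in otherwise high stretches. Of 234 with values in both neighbouring wells, 177 had a neighbour below -0.5, and 136 had neither neighbour above 0. Both neighbours were above 0 for 15. The drop from the mean of the neighbours was 1.06 at the median, from 0.44 at the 10th percentile to 2.12 at the 90th, and 5 tiles dropped by over 3. The lowest tile of this kind was TB68D03, at -3.16, -2.76, -3.15 and -3.17 in replicates 1 to 4, between neighbours at 0.14 and -0.37. The next were TB69A12 at -2.80 ± 0.32, TB35H10 at -2.74 ± 0.31 and TB10B01 at -2.74 ± 0.80. TB10B01 had the widest spread of these, with -3.39 and -3.47 in replicates 1 and 3 and -2.05 and -2.04 in 2 and 4.

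The sharpest isolated drops were narrow. TB40H08 had -1.91, -2.09, -1.97 and -2.25, between neighbours at 2.0 and 1.34, a drop of 3.73. TB84B01 had -2.17, -2.31, -2.08 and -2.63, between 0.68 and 2.11, a drop of 3.69. Both sat 1 well from tiles well above the median of the array, and no replicate of either came near the neighbouring levels. TB66A03 had a mean of -2.73 ± 0.23 and a drop of 3.38. TB37H08, with -1.92, -2.45, -3.16 and -2.76, also dropped by 3.38 from its neighbours at -0.41 and 2.02.

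The 5 longest runs differed in shape. A sixth, TB28E06 to TB28E11, also held 6 wells and tied with the last 2 of them, which had the lower means; its mean was -2.32. The longest, TB18G07 to TB18H07, held 13 wells with a mean of -3.22, -2.11, -3.29 and -2.14 in replicates 1 to 4. Replicates 1 and 3 were lower than 2 and 4 in all 13 tiles, so the depth of this run was 1.13 greater in that pair. Its first tile, TB18G07, had -2.81 ± 0.95, its lowest, TB18G11, -3.25 ± 0.64 and its last, TB18H07, -1.99 ± 0.57. The well before it had no value, and the tile before that, TB18G05, stood at 0.72. On its other side the level stayed low for several wells, with -1.10 at TB18H08 and -1.52 at TB18H09. A run of 4 wells, TB18G01 to TB18G04, lay 2 wells before it, so that 17 of the 25 low tiles of TB18 came from these 2 runs.

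The run TB01D10 to TB01E09 held 12 wells with a mean of -2.38, -2.16, -2.48 and -2.05. It crossed a row end without a break, with TB01D12 at -2.59 and TB01E01 at -2.56. It began abruptly, from -0.79 at TB01D09 to -2.14 ± 0.07 at TB01D10, reached -3.18 ± 0.53 at TB01E06 and faded to -1.26 ± 0.07 at TB01E09. After 1 well at -1.13, TB01E11 and TB01E12 were low again, at -1.53 and -1.72.

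The run TB24C01 to TB24C07 held 7 wells and was shallower, with a mean of -1.83 ± 0.10. It ran from -1.47 ± 0.11 at its first tile through -2.29 ± 0.39 at TB24C03 to -1.28 ± 0.19 at its last. The well after it stood at 0.31, and beyond it TB24C09 and TB24C10 were low again, at -1.78 and -1.82. The runs TB11D03 to TB11D08 and TB07D03 to TB07D08 held 6 wells each, with means of -2.76 ± 0.19 and -2.46 ± 0.14. Both were sharply bounded. TB11D02 stood at 0.08 before TB11D03 at -1.75 ± 0.17, and TB11D08 at -2.35 ± 0.29 was followed by -0.73. TB07D02 stood at 0.88 before TB07D03 at -1.70 ± 0.24, and TB07D08 at -1.98 ± 0.14 was followed by 0.65. The lowest tile of the TB07 run was TB07D06, at -3.13 ± 0.54, and that of the TB11 run was TB11D05, given above.

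**Figure D3:**
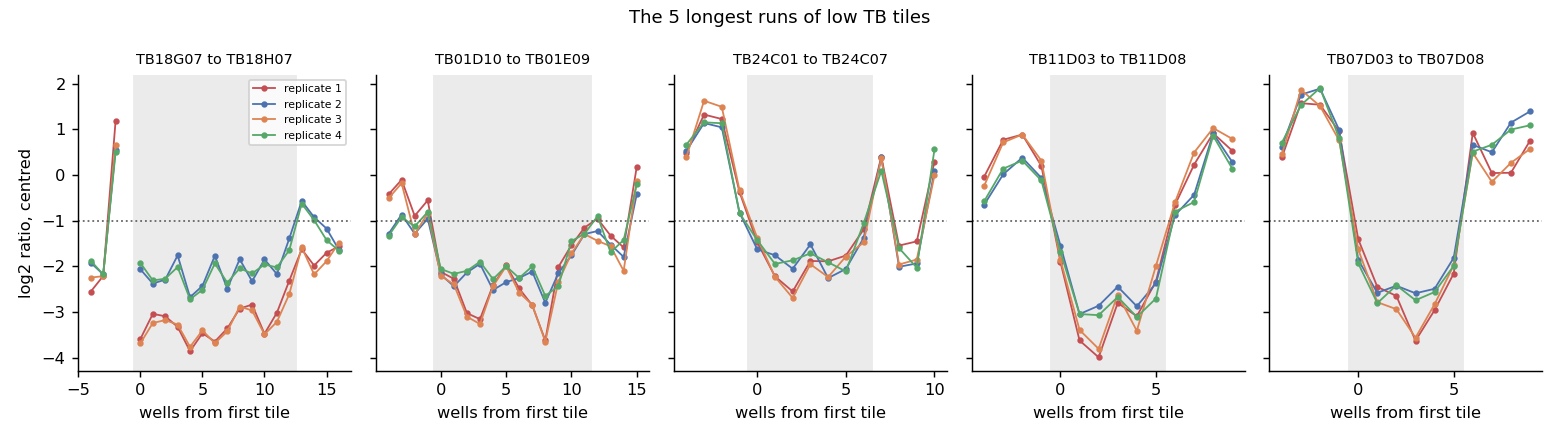
Each panel shows 1 of the 5 longest runs, with wells counted from its first tile on the horizontal axis, the centred log2 ratio on the vertical axis and 1 line per replicate; grey marks the run and the dotted line the limit of -1. Replicates 1 and 3 lie below 2 and 4 in all 13 tiles of the first run, and the TB11 and TB07 runs drop from around or above 0 to below -2 within 2 wells.

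The replicates separated into 1 and 3 against 2 and 4 at many low tiles, a pairing seen in the values and given by no label. Such differences also occurred at the other TB tiles. Replicates 1 and 3 minus 2 and 4 was below -0.5 at 11.8% of low tiles and at 11.6% of the other TB tiles. It was above 0.5 at 3.09% and 9.25%. The rule asks for all 4 replicates below -1, so tiles split across that limit count among the other TB tiles. These shares are therefore partly set by the rule and do not show whether the pairing is stronger or weaker at low tiles. Across the 517 low tiles the correlation was 0.944 for replicates 1 and 3 and 0.92 for 2 and 4. In the remaining 4 pairs of replicates it lay between 0.686 and 0.726. These are correlations across tiles, which share arrays and neighbours. The median SD over replicates was 0.18 for low tiles and 0.20 for the other TB tiles, a comparison that the rule also affects. The 3 low tiles with the largest SD were TB32C06, TB18H01 and TB32C07. TB32C06 had -3.60, -1.41, -3.57 and -1.51 in replicates 1 to 4. TB18H01 had -3.64, -1.77, -3.68 and -1.93. TB32C07 had -3.72, -1.91, -3.88 and -2.13. In all 3 tiles, replicates 1 and 3 were lower than 2 and 4. These tiles were picked for a large SD, and the share of all tiles with such a split was not counted.

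The difference between the 2 pairs went with the length of the run. Replicates 1 and 3 minus 2 and 4 gave a median of 0.05 for tiles that stood alone, 0.07 in runs of 2 wells, -0.04 in runs of 3 or 4 and -0.27 in runs of 5 or more. The share of tiles lower in 1 and 3 was 40.9%, 37%, 56.7% and 70.0%. For scale, it was 49.5% for the TB tiles that were not low and 45.8% for all low tiles. Without plate TB18, runs of 5 or more wells had a median of -0.15 over 57 tiles, of which 63.2% were lower in 1 and 3, so part of the size rests on that plate. Tiles with a mean below -2 were also taken alone, since the long runs were lower. There the median was 0.06 for 37 tiles that stood alone, 0.14 for 12 tiles in runs of 2 and -0.37 for 80 tiles in runs of 3 or more, or -0.27 for 66 tiles without TB18. The difference was similar in adjacent low tiles (correlation 0.585 over 175 adjacent pairs, across tiles). No test is given, as the pairing was found in these values. The number shared in the titles, taken as that of a slide, sets replicates 1 and 2 against 3 and 4. In limma this comparison gave 0 of 517 low tiles at an adjusted p under 0.05, with 0.0% of all tiles called. At an unadjusted p under 0.05 it gave 1 of 517 low tiles and 12 of all 9456 TB tiles. Each arm of that comparison holds a replicate of either pair. The seedling batch of the IP chromatin sets replicate 1 apart from the others and does not follow that pairing either.

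**Figure D4:**
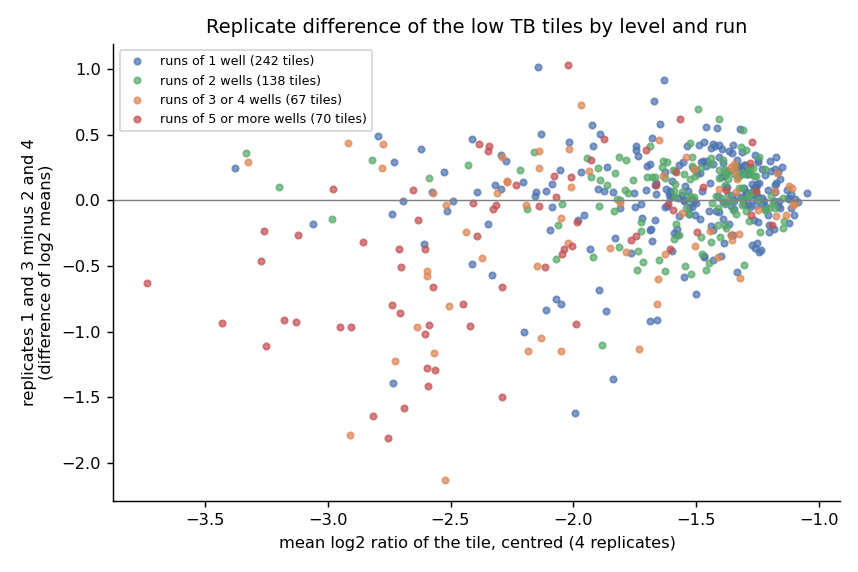
Each point is 1 low tile, with its mean centred log2 ratio on the horizontal axis and the difference of replicates 1 and 3 minus 2 and 4 on the vertical axis, coloured by the length of its run. Tiles of runs of 5 or more wells spread to -1.8 among the deep tiles, and the median difference was -0.27 for them against 0.05 for tiles that stood alone.

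Low tiles chosen by the same rule elsewhere on the array are given for scale. On TA64 to TA99, 13.9% of 3329 tiles were low, in runs of 1.80 wells on average and up to 17, with a median level of -1.77 ± 0.05. On TC00 to TC13, 6.32% of 1266 tiles were low, in runs of 1.63 wells and up to 6, at -1.52 ± 0.08. The median replicate difference was -0.02 and 0.06 there. In the blocks TA37 to TA51 and TC17 to TC30, where 78.2% and 78.7% of tiles were low, it was -0.65 and -0.69, and replicates 1 and 3 were lower in 88.4% and 87.7% of the low tiles. On TA21 to TA30, with 68.7% of tiles low, the difference was -0.34, and 71.3% of the low tiles were lower in 1 and 3. TA01 to TA20 went the other way, with a difference of 0.28 and 28.1% lower in 1 and 3, although the low tiles there, 17.1% of 1866, were deep, at -2.28 ± 0.04, and lay in runs of 2.01 wells on average. A greater depth or run length did not go with a negative difference on all plates. None of these differences between plates was tested.

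Plate TB66 held its low tiles in a different arrangement. It had 14 low tiles in 13 runs, and 12 of them lay in rows A, C, E and G and in odd columns, that is in every other well of every other row. These were TB66A03, TB66C03, TB66C05, TB66C07, TB66C11, TB66E03, TB66E05, TB66E07, TB66E11, TB66G03, TB66G05 and TB66G09, and the other 2 were TB66F02 and TB66F03. They were named after their values were seen. The 23 wells of that position with values had a median of -1.04, -1.26, -1.25 and -1.32 in replicates 1 to 4, or -1.22 ± 0.12. The other 3 positions had 0.56 ± 0.11, 0.59 ± 0.02 and 0.64 ± 0.16. The 12 low tiles had a median of -2.02 ± 0.18 and the 19 wells directly beside them in the row 0.41 ± 0.13, and the lower of these medians was below -1.79 and the higher above 0.27 in every replicate.

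No other TB plate showed this to a like degree. With each plate split into the same 4 positions, the gap between the lowest position and the next was 1.78 on TB66 and 0.57 on TB17, the second highest. On the other 99 TB plates, rows A, C, E and G in odd columns held 4.90% low tiles, against 6.35%, 4.21% and 6.05% in the other 3 positions. Without TB66 there were 503 low tiles in 329 runs with a mean of 1.53 wells. Low tiles on odd and even plates made up 5.88% and 5.05% of the tiles. Outer wells had 5.01% and inner wells 5.74%. How the plates were filled was not analysed here, and its part in the TB66 pattern was not tested.

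**Figure D5:**
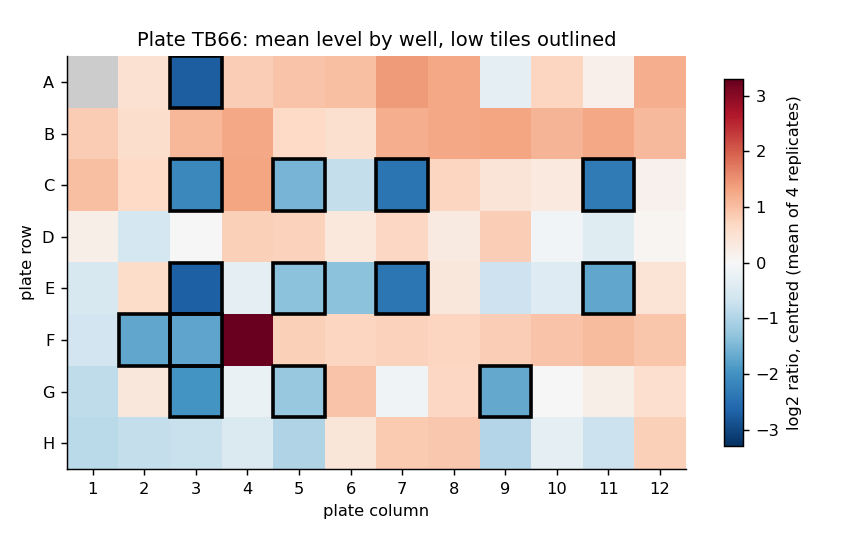
The 96 wells of plate TB66 are drawn by row and column and coloured by the mean centred log2 ratio of the 4 replicates, with low tiles outlined in black and the well without values in grey. Of the 14 outlined wells, 12 lie in rows A, C, E and G and in odd columns, and the wells between them are near or above 0 in most cases.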

How the data were processed

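The deposited values are log2 ratios of the 2 channels of dye-swap arrays, 1 value per swap; the base was inferred from the values, and how the authors corrected, normalized and averaged the signals is not given in the sources used here. Per the labels, DNA was amplified and labelled directly with Cy3 and Cy5. Samples were grouped by the replicate number in their labels. Each replicate was centred on the median of the 21285 tiles named by plate and well with values, with no loess or quantile step. Of 9600 TB wells, 144 had no value, and such a well ended a run. Levels are medians per replicate, then mean ± SD over the 4 replicates. R 4.3.3 with limma 3.58.1 gave moderated two-sided tests (lmFit, then eBayes; Benjamini-Hochberg over all tiles, threshold 0.05), checked on simulated data, as was the run search. The simulated replicates for limma were independent, so that check does not cover the pairing of replicates 1 and 3 and of 2 and 4. Other steps used Python 3.11.15, numpy 2.4.6, pandas 2.3.3, scipy 1.17.1 and matplotlib 3.10.9.

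The low tiles, tests and alternatives were chosen with earlier results of these data known. Alternatives changed the centring, the threshold, the well order, the joining of runs, the variance model and the replicates used. Named tiles were the 6 lowest; the first, last and lowest of the 5 longest runs; the 4 lowest and the 4 with the largest drop among those alone between 2 measured wells; the 3 nearest to the limit on either side; and the 3 with the largest SD. Runs of equal length were ranked by lower mean. Named plates were the 5 with most low tiles, and the 3 longest gaps were named. Tiles given as context of a run or gap, and TB66, fall outside this rule and were chosen after their values were seen. Genes and coordinates of tiles were not used here.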

Additional observations from a re-analysis of the deposited data

Results flagged for a closer look

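Among 55 levels, tiles and run means, Dixon's test at its 95% critical value for 4 samples set apart a replicate in 2, where chance alone sets apart about 1 in 20. At TB01E09, the last tile of the run of 12 wells, replicate 1 had -1.15 and the others -1.29, -1.29 and -1.29, a gap of 0.968 of the range. At TB68D03, the lowest tile that stood alone between 2 measured neighbours, replicate 2 had -2.76 and the others -3.16, -3.15 and -3.17, a gap of 0.945 of the range. Dixon's test cannot set apart a pair of replicates from the other pair, and so does not speak to the difference of replicates 1 and 3 from 2 and 4.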

How the results depend on the processing

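The number of low tiles rests on the centring and the limit, since moving either moves the cut through a continuous range. There were 1438 low tiles as deposited, 2013 centred on the mode, 1335 centred on the TB median, 1384 at a limit of -0.5 and 179 at -1.5, against 517. In that order the runs numbered 730, 875, 696, 711 and 115, the low tiles had a level of -1.69, -1.78, -1.62, -1.12 and -2.17, and the median gap was 6, 5, 6, 6 and 38.5 wells. In the first 4 of these settings the mean run was 1.97, 2.30, 1.92 and 1.95 wells, tiles standing alone made up 27.9%, 20.9%, 29.7% and 28.9%, and the wells beside runs had -0.74, -0.73, -0.67 and -0.17. The longest run, 13 wells, was 17, 22, 22 and 22 wells in these 4 settings, 12 at a limit of -1.5 and 3 down the columns. Quantile normalization gave 540 low tiles, 506 of them among the 517. Without 1 replicate each, low tiles ranged from 532 to 624 and the median gap from 11 to 14 wells. Counted down the columns, the mean run was 1.10 wells, 83.6% stood alone, the gap was 7 wells and the wells beside runs had 0.27 in place of -0.55, a change of sign that follows from wells beside each other in a column being 12 wells apart along the rows. With 1 well allowed inside a run the mean was 1.88 wells, 36.4% stood alone and the gap was 19. The limma calls of TB tiles below the median tile numbered 2424, against 1153 with limma's treat at 1.5-fold and 4812 after centring on the mode. All 517 low tiles were called below in each of the 10 alternative fits. Tiles chosen in replicates 1 and 3 were called in 2 and 4 in 98.9% of cases and the reverse in 99.2%, and at a limit of -0.5 the shares for the pairs 1 and 2 and 3 and 4 were 98.1% and 93.3%; the cause was not tested. Leaving out TB66 was added after seeing the data and moved none of the 7 values by more than the spread between replicates or 1.5 times. No paired analysis was possible because all samples belong to 1 group. No intensities were analysed here, so the limit that signal over background sets is unknown.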

Other observations

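Of the 517 low tiles, 16, or 3.09%, lay next to 1 of the 144 TB wells without values, against 2.63% of all TB tiles with values. Even columns held 6.15% low tiles and odd columns 4.78%, from 7.49% in column 6 to 3.3% in column 9, and rows ranged from 4.06% in row F to 6.72% in row E. Neither was tested.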
